A study of Mus musculus with 16 samples.

Results

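The 7 genes described here are classic markers and regulators of the embryonic genital ducts: the transcription factor genes Pax2, Pax8, Lhx1 and Emx2, the ligand genes Wnt9b and Wnt7a, and the hormone receptor gene Amhr2. They were taken by symbol from the table of 55228 gene symbols, and each of the 7 was found once and passed the filter on low counts. They were read in mesenchyme, the tissue under the epithelial lining, of 4 groups of wild-type, untreated mouse embryos at embryonic day 16.5: male pelvic urethra, female pelvic urethra, male bladder and female bladder. The embryos were of CD-1, an outbred stock. Each group had 4 libraries from 4 litters, and each library held the tissue of all embryos of 1 sex in a litter, pooled, so a value is a litter's average and not an embryo's.

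The Wolffian duct and the Müllerian duct run side by side in every early embryo and both end at the urogenital sinus, the part of the hindgut-derived cloaca that forms the bladder and the pelvic urethra. In males, androgens keep the Wolffian duct, which becomes the epididymis, the vas deferens and the seminal vesicle, while anti-Müllerian hormone from the testis makes the Müllerian duct regress. In females the Wolffian duct is lost and the Müllerian duct becomes the oviduct, the uterus and the upper vagina. In the mouse, WNT9B made by the Wolffian duct is needed for the Müllerian duct to grow, and WNT7A made by the Müllerian epithelium is needed for the mesenchyme around it to express Amhr2.

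Counted fragments came to 24447435 to 29698009 per urethra library and 18577097 to 22293812 per bladder library (n = 8 each), so depth and tissue went together. Genes of epithelium were not absent from these mesenchyme libraries. The 13 genes of a general epithelium list summed to 1380 to 1800 CPM (counts scaled to a common library size) in male urethra, 573 to 1330 in female urethra, 2650 to 3230 in male bladder and 1420 to 2780 in female bladder, and none of the 13 was at 0. Averaged over the list, log2 CPM was 6.18, 6.19, 5.47 and 5.03 in female urethra replicates 1 to 4, and 6.42, 6.49, 5.67 and 6.06 in female bladder replicates 1 to 4. Replicates 3 and 4 were thus the lowest of both female groups. In male urethra it was 6.32 to 6.66 and in male bladder 6.49 to 6.84. Since the libraries are of bulk tissue, fewer cells of a type and less RNA per cell cannot be told apart in any value below.

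Wnt9b, Amhr2 and Wnt7a had the largest differences between male and female urethra among the 7 genes, and the DNA just before them is given here for that reason. The stretches come from RefSeq on build GRCm38.p6, run up to 250 bases, end where the gene begins in the count table and are written 5′ to 3′ on the gene's strand. Wnt9b lies on the minus strand and its stretch is chr11:103749822-103750071, Wnt7a lies on the minus strand with chr6:91411364-91411603, and Amhr2 lies on the plus strand with chr15:102445117-102445366. Capitals mark matches to CAAGGTCA, a motif of the orphan nuclear receptor NR5A1, and to GNGGGGGNG, a motif of zinc finger factors such as WT1, on either strand.
Wnt9b: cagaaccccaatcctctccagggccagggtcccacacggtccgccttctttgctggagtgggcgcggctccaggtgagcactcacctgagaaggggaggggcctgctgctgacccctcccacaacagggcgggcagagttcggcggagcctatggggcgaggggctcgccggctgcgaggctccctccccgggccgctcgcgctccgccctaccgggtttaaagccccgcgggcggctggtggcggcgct
Wnt7a: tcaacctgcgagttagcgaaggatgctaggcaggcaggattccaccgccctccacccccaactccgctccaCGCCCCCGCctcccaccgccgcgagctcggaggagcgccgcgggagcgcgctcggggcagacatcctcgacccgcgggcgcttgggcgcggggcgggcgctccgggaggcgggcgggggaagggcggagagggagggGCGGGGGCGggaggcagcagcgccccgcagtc
Amhr2: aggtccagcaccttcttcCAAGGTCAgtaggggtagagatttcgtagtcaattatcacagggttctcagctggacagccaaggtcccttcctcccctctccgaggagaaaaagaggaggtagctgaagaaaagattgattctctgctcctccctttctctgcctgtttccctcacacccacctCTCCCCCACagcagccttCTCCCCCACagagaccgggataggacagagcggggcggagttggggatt

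The Amhr2 stretch held 1 match to CAAGGTCA, which began 232 bases before the RefSeq start of the gene and contained the half-site AGGTCA of nuclear receptors. It also held 2 matches to GNGGGGGNG, 67 and 49 bases before the start, and the Wnt7a stretch held 2, 179 and 42 bases before. The Wnt9b stretch had no match to any motif searched. Among 32851 RefSeq windows of the same kind, 1.33% held CAAGGTCA, 14% held AGGTCA and 17% held GNGGGGGNG. None of the 3 stretches held the paired-domain core GCGTGAC (in 1.78% of windows), the homeodomain motif TAATTA (4.84%), the TCF/LEF motif CTTTGAT (3.21%) or the GATA motif AGATAA (9.99%). All motifs were searched on both strands, and a match describes the letters only. The GC content was 72.0% for Wnt9b, 77.1% for Wnt7a and 55.2% for Amhr2.

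**Figure D1:**
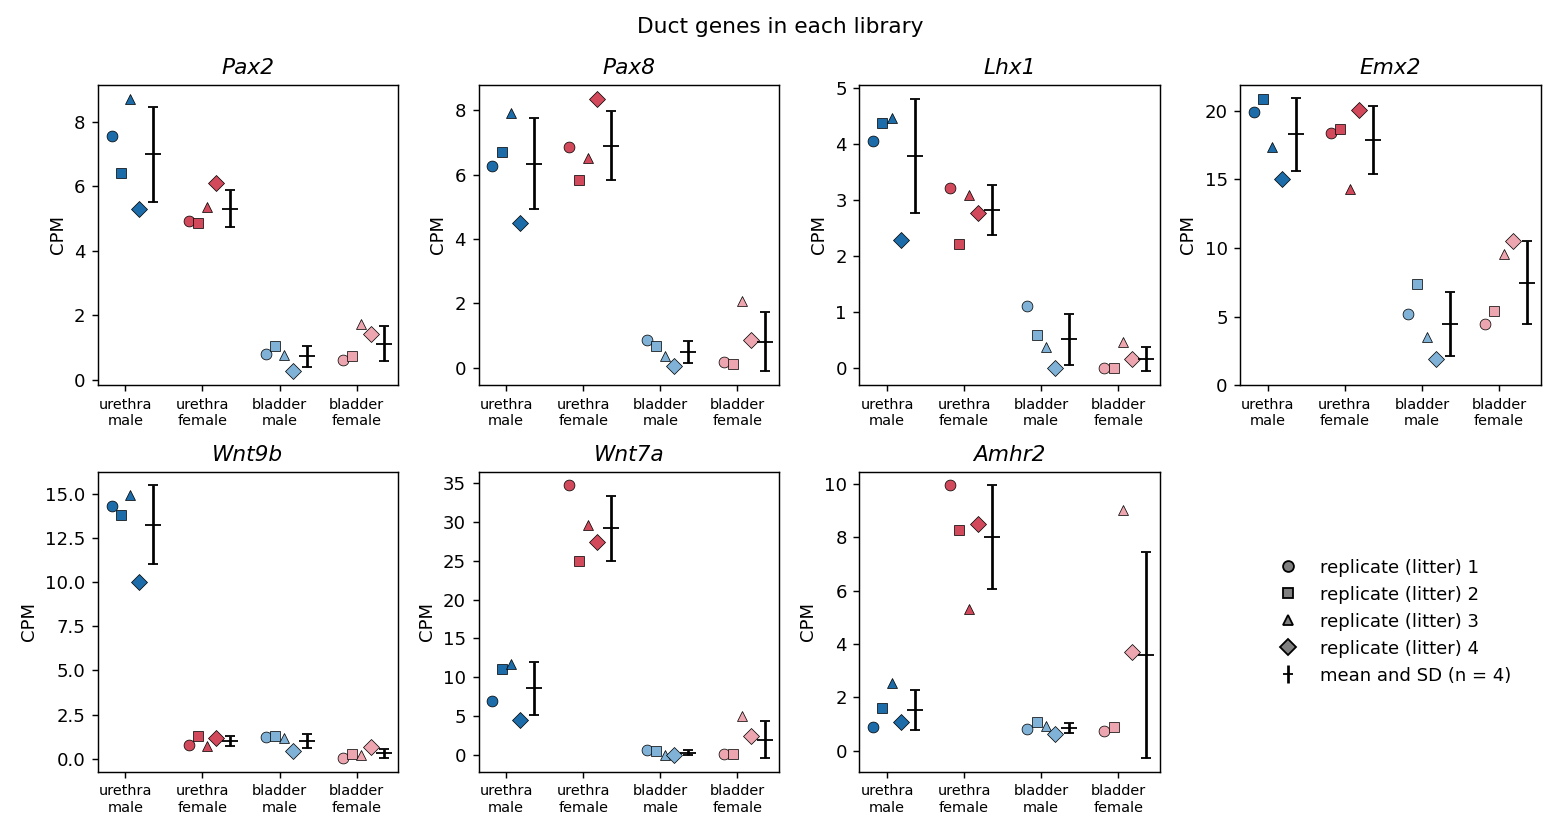
Level of each of the 7 genes in CPM (vertical axes) in the 16 libraries, by group; each marker is 1 library, its shape gives the litter, and the bar is the mean with the SD of 4 libraries. Pax2, Pax8, Lhx1 and Emx2 lie higher in both urethra groups than in both bladder groups, Wnt9b stands out in male urethra at 9.98 to 14.9 CPM, Wnt7a in female urethra at 24.9 to 34.7 CPM, and Amhr2 is high in female urethra and in female bladder replicate 3 (9.01 CPM).

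The first question the study's design sets is which genes mark the urethral as against the bladder compartment. Of the 7 duct genes 6 were higher in the urethra than in the bladder, by 1.64 to 4.34 on the log2 scale, and the same 6 passed the test in males alone and in females alone. Amhr2 was the exception. The edgeR quasi-likelihood test, with Benjamini-Hochberg adjustment over 18254 genes and a threshold of 0.05, called 36.5% of all genes tested higher in the urethra and 75.0% in either direction. In females alone it called 32.6% higher and in males alone 31.4%. The median log2 fold change was 2.72 over the 7 genes and -0.03 over all genes tested. For 4 of the 7 (Pax2, Pax8, Lhx1 and Emx2) every urethra library lay above every bladder library, and 42.3% of all genes tested had no overlap between the tissues in either direction.

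The 4 transcription factor genes shared a plain pattern, high in urethra of both sexes and low in bladder. Pax2 encodes a paired-box factor of the Wolffian duct, the Müllerian epithelium and the kidney, and lies at chr19:44756045-44837871. Its level was 7.55, 6.4, 8.71 and 5.28 CPM in male urethra replicates 1 to 4, 4.92, 4.85, 5.36 and 6.10 CPM in female urethra, 0.803, 1.07, 0.787 and 0.269 CPM in male bladder, and 0.615, 0.739, 1.72 and 1.43 CPM in female bladder. The lowest urethra library was thus well clear of the highest bladder library. The log2 fold change of urethra over bladder was 2.72 ± 0.21 (edgeR, adjusted p = 3.71e-09), with 3.23 ± 0.30 in males and 2.22 ± 0.29 in females. Errors of fold changes are standard errors throughout.

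Pax8, at chr2:24420560-24475599, encodes the close relative that acts with PAX2 in setting up the nephric and ductal lineage. It had 6.27, 6.71, 7.90 and 4.49 CPM in male urethra, 6.86, 5.82, 6.52 and 8.36 CPM in female urethra, 0.853, 0.681, 0.370 and 0.0537 CPM in male bladder, and 0.168, 0.114, 2.08 and 0.849 CPM in female bladder. The urethra groups overlapped each other and the bladder groups overlapped each other, with female bladder replicate 3 the highest of the bladder libraries and male bladder replicate 4, with 1 count, the lowest. Urethra exceeded bladder by 3.36 ± 0.36 on the log2 scale (edgeR, adjusted p = 4.69e-07). In females alone the difference in Pax8 was 3.05 ± 0.50, and 4.17 ± 0.48 without female bladder replicate 3.

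Lhx1 encodes a LIM homeodomain factor needed for the epithelium of both ducts, and lies at chr11:84518284-84525535. Per kilobase of exon it was the least abundant of the 4 in both urethra groups. It had 4.06, 4.37, 4.46 and 2.28 CPM in male urethra and 3.21, 2.21, 3.10 and 2.77 CPM in female urethra. The bladder libraries held 22, 12, 8 and 0 counts in males, or 1.10, 0.584, 0.370 and 0 CPM, and 0, 0, 9 and 3 counts in females, or 0, 0, 0.456 and 0.159 CPM. A count of 0 allows up to 0.161 CPM in male bladder replicate 4 and up to 0.168 and 0.170 CPM in female bladder replicates 1 and 2, taking 3 counts as the limit, so Lhx1 was not detectable there at this depth. Such limits cover counting error only. The log2 fold change of urethra over bladder was 3.47 ± 0.41 (edgeR, adjusted p = 9.5e-07), and 4.24 ± 0.45 without female bladder replicate 3. In females it was 4.09 ± 0.64, or 5.58 ± 0.81 without that library, and in males 2.86 ± 0.50, or 3.55 ± 0.55 without male bladder replicate 1.

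Emx2, at chr19:59458372-59465357, encodes a homeodomain factor without which the genital ducts, kidneys and gonads fail to form. Emx2 was read in every bladder library, at 1.93 CPM or more. It had 19.9, 20.9, 17.4 and 15 CPM in male urethra, 18.4, 18.7, 14.3 and 20.1 CPM in female urethra, 5.17, 7.35, 3.47 and 1.93 CPM in male bladder, and 4.42, 5.4, 9.57 and 10.5 CPM in female bladder. The means of the urethra groups, 18.3 ± 2.63 CPM for males and 17.9 ± 2.47 CPM for females (SD, n = 4 each), lay close together. The log2 fold change of urethra over bladder was the smallest of the 6 called, 1.64 ± 0.22 (edgeR, adjusted p = 4.67e-06). Emx2os, an antisense transcript that overlaps Emx2 on the opposite strand, had a log2 fold change of 1.39 ± 0.16 (edgeR, adjusted p = 8.19e-07), and the counting kept the strands apart, per the file headers.

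The ligand genes were also higher in the urethra than in the bladder in both sexes, and their levels in the urethra lay apart between the sexes, with Wnt9b higher and Wnt7a lower in males. Wnt9b lies at chr11:103727364-103749821 and encodes the signal of the Wolffian duct epithelium. It had 14.3, 13.8, 14.9 and 9.98 CPM in male urethra, 0.794, 1.28, 0.710 and 1.18 CPM in female urethra, 1.25, 1.27, 1.16 and 0.430 CPM in male bladder, and 0.0559, 0.284, 0.203 and 0.690 CPM in female bladder. The male urethra libraries stood alone, female urethra and male bladder overlapped, and female bladder lay below female urethra with no overlap. In the order of group means, male urethra (13.3 ± 2.24 CPM) came before male bladder (1.03 ± 0.401), female urethra (0.992 ± 0.282) and female bladder (0.308 ± 0.272, SD, n = 4 each). The urethra exceeded the bladder by 3.67 ± 0.30 in males (edgeR, adjusted p = 2.76e-08) and by 1.65 ± 0.45 in females (adjusted p = 0.00442) on the log2 scale, and the female value was 2.42 ± 0.49 without female bladder replicate 4.

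Wnt7a, at chr6:91363981-91411363, encodes the signal of the Müllerian duct epithelium and had the largest log2 fold change between the tissues among the 7 genes. It had 6.91, 11.1, 11.7 and 4.49 CPM in male urethra and 34.7, 24.9, 29.6 and 27.4 CPM in female urethra. In the bladder it had 13, 10, 1 and 0 counts in males, or 0.652, 0.487, 0.0463 and 0 CPM, and 3, 1, 100 and 47 counts in females, or 0.168, 0.0568, 5.06 and 2.49 CPM. Female urethra was highest, male urethra lay in between, and of the bladder libraries only female replicates 3 and 4 exceeded 1 CPM, replicate 3 reaching into the range of male urethra. Urethra exceeded bladder by 4.34 ± 0.53 on the log2 scale (edgeR, adjusted p = 3.14e-06). It was 4.82 ± 0.87 in males, or 5.56 ± 1.05 without male bladder replicate 1, and 3.86 ± 0.64 in females, or 4.99 ± 0.68 without female bladder replicate 3.

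Amhr2, at chr15:102445367-102454633, encodes the type II receptor for anti-Müllerian hormone, which is carried by the mesenchyme around the Müllerian duct and by cells of the gonad. Its level was 0.891, 1.61, 2.56 and 1.07 CPM in male urethra, 9.94, 8.26, 5.32 and 8.50 CPM in female urethra, 0.803, 1.07, 0.926 and 0.645 CPM in male bladder, and 0.727, 0.909, 9.01 and 3.72 CPM in female bladder. Female bladder replicate 3, with 178 counts, reached the level of female urethra. Replicate 4, with 70 counts, lay below every female urethra library, while replicates 1 and 2 had 13 and 16 counts, like the male bladder. Urethra and bladder thus overlapped, and the log2 fold change of 0.98 ± 0.43 did not pass the test (edgeR, adjusted p = 0.0533), nor did 1.14 ± 0.53 in females (adjusted p = 0.0704) or 0.82 ± 0.70 in males (adjusted p = 0.315).

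That call for Amhr2 turned on single settings. Over both sexes Amhr2 stayed uncalled in 18 of 27 alternatives (edgeR, adjusted p up to 0.126) and passed in 9. In females it stayed uncalled in 22 of 27. In 7 of the 8 pairs of 1 litter and sex the urethra was the higher. With the litter as a block the log2 fold change was 1.10 ± 0.46 over both sexes (edgeR, adjusted p = 0.0447) and 1.42 ± 0.55 in females (adjusted p = 0.0392), which passed the threshold. It also passed with DESeq2 (1.00 ± 0.46, adjusted p = 0.0389), without male urethra replicate 1 (adjusted p = 0.0437), without female urethra replicate 3 (adjusted p = 0.0451) and without female bladder replicate 3, where it was 1.52 ± 0.33 (adjusted p = 0.000757) over both sexes and 2.17 ± 0.45 in females (adjusted p = 0.000649). Without female bladder replicates 3 and 4 Amhr2 differed by 2.09 ± 0.27 over both sexes, 3.32 ± 0.41 in females and 0.87 ± 0.34 in males (adjusted p = 0.0347 in males). Those 2 libraries were the lowest of their group in epithelium genes, but they were left out after their Amhr2 values had been seen, and taking out the highest bladder values by itself widens the difference.

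**Figure D2:**
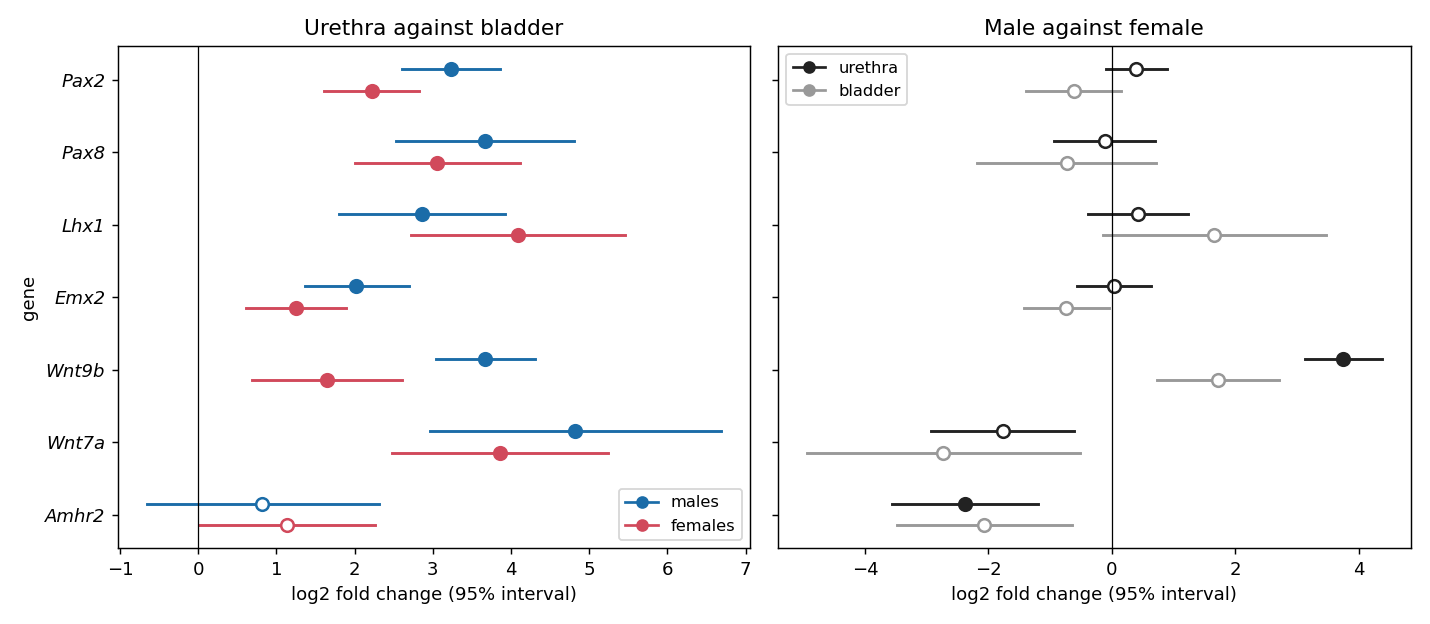
Log2 fold changes (horizontal axes) of the 7 genes with 95% intervals, for urethra against bladder in males and in females (left panel) and for male against female in urethra and in bladder (right panel); filled circles passed the edgeR test and open circles did not. Between the tissues 6 genes are filled in both sexes, between the sexes only Wnt9b (3.75) and Amhr2 (-2.38) in the urethra are.

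The pools of each sex allow males to be set against females within each tissue. In the urethra Wnt9b was higher and Amhr2 lower in males, and the other 5 of the 7 genes did not pass the test. Among all genes tested 6.39% were called in this comparison, 3.97% higher and 2.42% lower in males. Wnt9b averaged 13.3 CPM in male urethra and 0.992 CPM in female urethra, a 13.4-fold difference and a log2 fold change of 3.75 ± 0.29 (edgeR, adjusted p = 3.4e-07), with the male higher in 4 of 4 litters. The lowest male library had 9.98 CPM and the highest female library 1.28 CPM. The mean log2 CPM of the epithelium genes was 6.49 ± 0.15 in male urethra and 5.72 ± 0.57 in female urethra (SD, n = 4). Its range was 6.32 to 6.66 in males and 5.03 to 6.19 in females. Since these ranges did not overlap, a fit with that level as a covariate cannot fully part epithelium from sex. Wnt9b kept its call under every alternative run, that level as a covariate among them, with log2 fold changes of 3.62 to 3.93.

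Amhr2 averaged 1.53 ± 0.751 CPM in male urethra and 8.01 ± 1.94 CPM in female urethra (SD, n = 4), a 5.21-fold lower level in males with a log2 fold change of -2.38 ± 0.56 (edgeR, adjusted p = 0.0179). The male was lower in 4 of 4 litters and no male library reached the lowest female one. The call was lost without male urethra replicate 1, 2 or 4 (adjusted p = 0.0595, 0.0505 and 0.0688), without female urethra replicates 3 and 4 (-2.57 ± 0.66, adjusted p = 0.0769), with no filter on low counts (adjusted p = 0.0675) and with the mean level of the epithelium genes as a covariate, where it was -1.83 ± 0.65 (adjusted p = 0.229). Over all alternatives its adjusted p ran from 5.6e-05 to 0.229, and its sign was the same in each. Calls over all genes were also fewer with that covariate, 268 higher and 109 lower in males against 725 and 442 in the main fit. Since the covariate did not overlap between male and female urethra, the lost call of Amhr2 cannot tell epithelium from sex.

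Wnt7a averaged 8.56 ± 3.46 CPM in male urethra and 29.1 ± 4.16 CPM in female urethra (SD, n = 4). The 2 groups did not overlap and the male was lower in 4 of 4 litters. The log2 fold change was -1.77 ± 0.54, with a 95% interval of -2.93 to -0.61, and did not pass the adjusted threshold (edgeR, adjusted p = 0.0725). The spread that enters this test is shared with the bladder groups, in which Wnt7a ran between 0 and 100 counts. With only the 2 urethra groups in the fit Wnt7a was called at -1.75 ± 0.26 (edgeR, adjusted p = 0.00327), and likewise without male bladder replicate 3 or 4 (adjusted p = 0.0449 and 0.0485) or without female bladder replicate 1, 2 or 3 (adjusted p = 0.0492, 0.0414 and 0.0356). Without female bladder replicates 3 and 4 the value was -1.75 ± 0.32 (adjusted p = 0.0048). It was called in 7 of 27 alternatives, and with the epithelium covariate it was -1.19 ± 0.64 (adjusted p = 0.471). That covariate did not overlap between male and female urethra, so the value cannot tell epithelium from sex.

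The libraries of male and female urethra were apart for 3 of the 7 genes, against 13.4% of all genes tested, and the 4 transcription factor genes were those that overlapped. Their log2 fold changes of male over female urethra were 0.39 ± 0.23 for Pax2 (95% interval -0.10 to 0.89), -0.12 ± 0.38 for Pax8 (-0.94 to 0.70), 0.42 ± 0.38 for Lhx1 (-0.39 to 1.23) and 0.04 ± 0.28 for Emx2 (-0.57 to 0.64). The adjusted p-values of edgeR for these 4 were 0.382 to 0.967. Differences as large as the ends of these intervals are not shut out by the data.

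**Figure D3:**
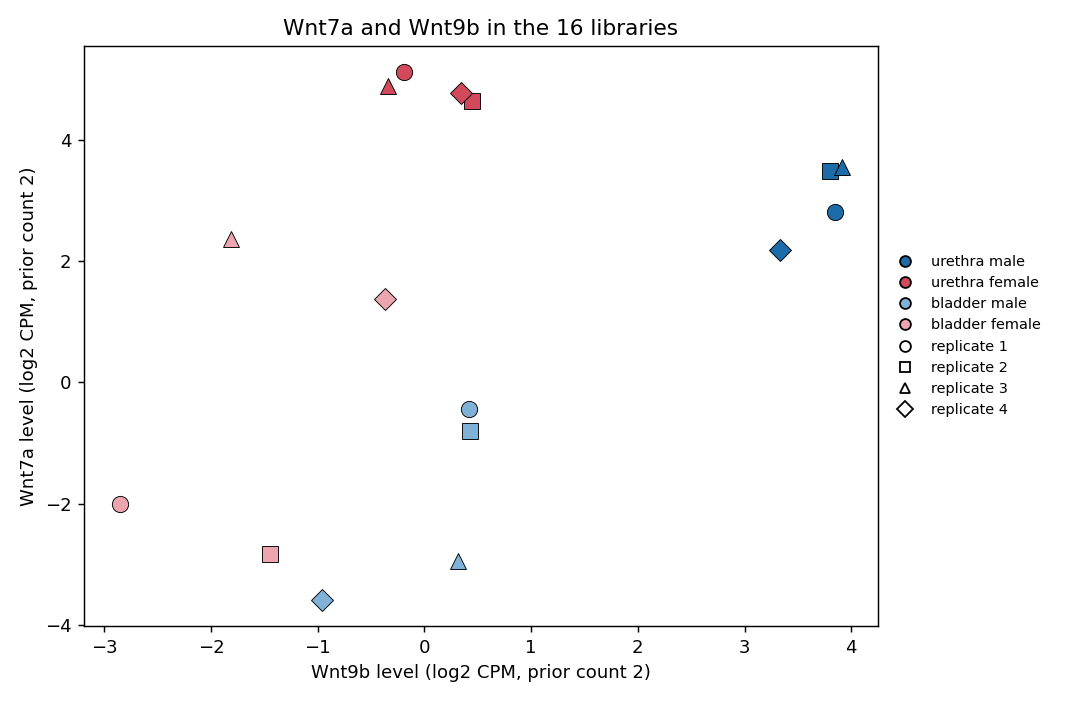
Level of Wnt7a (vertical axis) against Wnt9b (horizontal axis), both in log2 CPM with a prior count of 2, in the 16 libraries; colour gives the group and shape the litter. The male urethra libraries lie at the right, the female urethra libraries at the top near the Wnt9b level of male bladder, and female bladder replicates 3 and 4 above the other bladder libraries.

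The balance of the ligands differed between the sexes. Expressed per kilobase of exon, so that genes of different length can be compared, the level of Wnt7a was 0.687, 1.15, 1.12 and 0.641 times that of Wnt9b in male urethra replicates 1 to 4 and 62.2, 27.6, 59.3 and 33.1 times that of Wnt9b in female urethra. The 2 ranges were far apart. Relative to Pax2, which both ducts express, Wnt9b stood at a ratio of 2.05 to 2.59 in male urethra and 0.159 to 0.317 in female urethra. Wnt7a over Pax2 was 1.45 to 2.97 in males and 7.66 to 12 in females, and Amhr2 over Pax2 was 0.318 to 0.794 in males and 2.68 to 5.45 in females. Pax8 over Pax2 was 0.741 to 0.936 in male urethra and 1.07 to 1.24 in female urethra, so these ratios did not overlap although neither gene was called between the sexes, while those of Lhx1 and Emx2 over Pax2 overlapped. These ratios were not tested.

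The order of the 7 genes by CPM per kilobase differed between the groups. In male urethra Emx2 (6.10) led, before Wnt9b (2.94), Wnt7a (2.70), Pax2 (1.29), Pax8 (1.05), Lhx1 (0.931) and Amhr2 (0.765). In female urethra Wnt7a (9.19) led, before Emx2 (5.95), Amhr2 (3.99), Pax8 (1.14), Pax2 (0.982), Lhx1 (0.692) and Wnt9b (0.220). Emx2 led in both bladder groups, at 1.49 in males and 2.49 in females, with Amhr2 next at 0.429 and 1.79.

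In the bladder none of the 7 genes passed the edgeR test between male and female, in a comparison where 0.581% of all genes were called. All 7 overlapped between the sexes there, against 6.62% of genes that did not. Without adjustment edgeR put 4 of the 7 under 0.05, against 12.4% of all genes tested, namely Wnt9b (1.72 ± 0.47, adjusted p = 0.1), Amhr2 (-2.07 ± 0.66, adjusted p = 0.19), Wnt7a (-2.73 ± 1.03, adjusted p = 0.281) and Emx2 (-0.74 ± 0.33, adjusted p = 0.372). The values of Amhr2 and Wnt7a rest on female bladder replicates 3 and 4: without both, left out after their values were seen, Amhr2 was 0.09 ± 0.49 and Wnt7a 1.37 ± 1.46, with the sign turned, and without replicate 3 alone they were -1.06 ± 0.54 and -1.63 ± 1.09. Wnt9b was 2.48 ± 0.50 without replicate 4, and Emx2 was -0.12 ± 0.36 without both. DESeq2 called Wnt9b alone of the 7 (adjusted p = 0.0052). Over all genes tested DESeq2 called 229 higher and 244 lower in male bladder, where edgeR called 45 and 61. The test of whether the sex difference itself differed between urethra and bladder called 0.668% of all genes and none of the 7 by edgeR. Without adjustment edgeR put Wnt9b (2.03 ± 0.62, adjusted p = 0.216) and Pax2 (1.01 ± 0.43, adjusted p = 0.505) under 0.05, where 8.38% of all genes tested lay, and DESeq2 called Wnt9b (adjusted p = 0.00971). In that test DESeq2 called 196 of all genes with a positive and 78 with a negative sign, where edgeR called 98 and 24. The larger sex difference of Wnt9b in the urethra is therefore a call by 1 tool and not by the other.

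**Figure D4:**
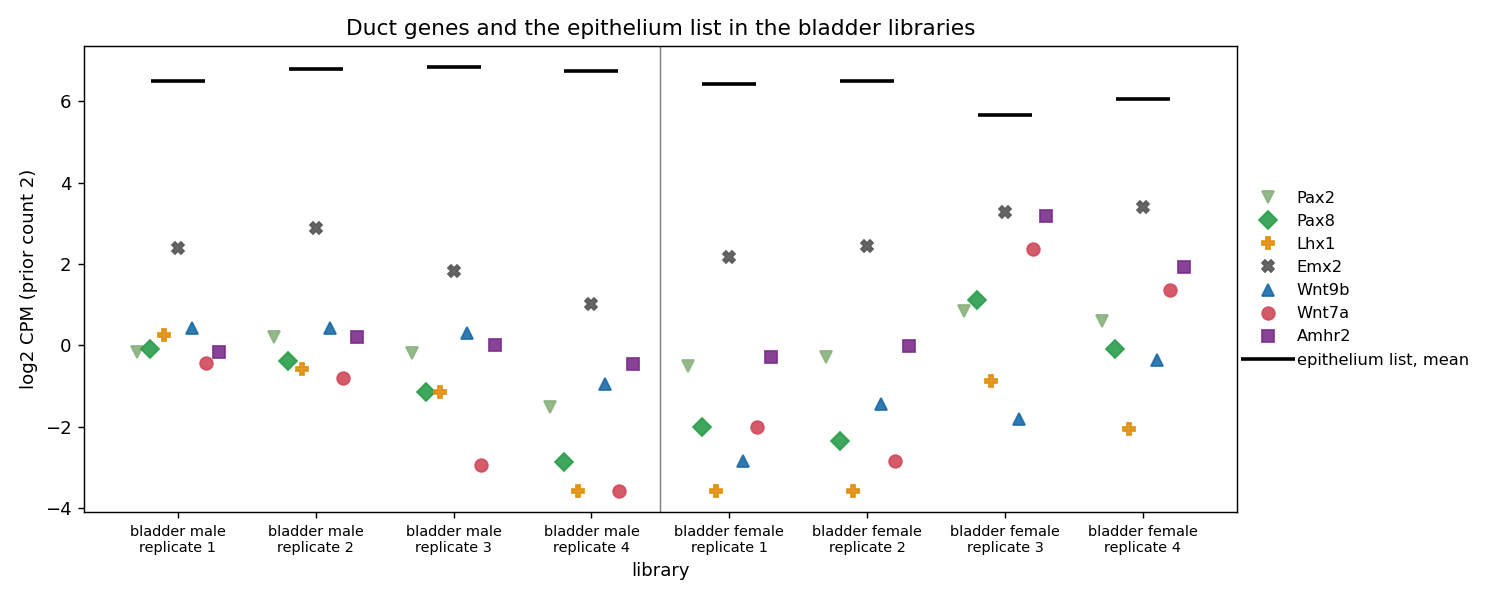
Levels of the 7 genes in the 8 bladder libraries (vertical axis, log2 CPM with a prior count of 2), with the mean of the 13 epithelium genes as a bar. Male replicate 4 has the lowest value of its group for each of the 7 genes, and in female replicates 3 and 4 Amhr2 and Wnt7a stand above replicates 1 and 2 while the epithelium bar is lower.

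Within the bladder groups certain libraries held the lowest or the highest value of many of the 7 genes. Male bladder replicate 4 was the lowest of its group for 7 of the 7 genes, with 0 counts of Wnt7a and Lhx1 and 1 of Pax8. Female bladder replicate 3 was the highest of its group for 5 genes (Pax2, Pax8, Lhx1, Wnt7a and Amhr2) and replicate 4 for the other 2 (Emx2 and Wnt9b), while Wnt9b in replicate 3 (0.203 CPM) lay below replicate 2 (0.284 CPM). In the urethra, male replicate 3 was the highest for 6 genes and male replicate 4 the lowest for 6, whereas in female urethra lows and highs were spread over the litters. Cdh16, a cadherin gene of duct and kidney epithelium, had 5.77, 6.28, 4.31 and 0.376 CPM in male bladder replicates 1 to 4 and 0.392, 0.909, 1.92 and 1.75 CPM in female bladder. Cdh16 was chosen after its values were seen, and the list of 10 duct epithelium genes that holds it did not follow it in females. Averaged over its 10 genes, log2 CPM came to 2.71, 2.90, 3.21 and 2.20 in male bladder replicates 1 to 4 and 2.22, 2.40, 2.37 and 2.39 in female bladder. The general epithelium list did not go the same way, since its mean in male bladder replicate 4 (6.74) lay within the range of the other 3 (6.49 to 6.84) and its values in female bladder replicates 3 and 4 were the lowest of that group.

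Other genes of the ducts, taken from fixed lists that were drawn up with earlier results of these data known, were also mostly higher in the urethra. Of 10 further genes of duct epithelium 9 were higher and none lower, with a median log2 fold change of 1.70 against -0.03 for all genes tested. The share of all genes tested that were called higher in the urethra was 36.5%. Calb1, a calcium-binding protein gene of the duct and the distal nephron, had the largest called change of the list at 4.52 ± 0.17 (edgeR, adjusted p = 8.13e-13). Sim1, a bHLH-PAS factor gene, came next and had 22 to 25 counts in male urethra, 4 to 8 in female urethra, 0 to 2 in male bladder and 0 in each female bladder library. In male against female urethra, where 3.97% of all genes were called higher, 4 of the 10 were higher and none lower (median 0.39). The largest were Sim1 at 1.91 ± 0.27 and Cdh16 at 1.67 ± 0.37 (edgeR, adjusted p = 0.000612 and 0.0139). Of the 13 epithelium genes 4 were also higher in male urethra and none lower (median 0.74). The parts of epithelium and of nerve cells in the duct counts were not tested.

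Of 13 genes of the mesenchyme around the Müllerian duct, 9 were higher in the urethra than in the bladder and 1 lower (median 1.01). Among all genes tested 36.5% were called higher in the urethra. Between male and female urethra, where 6.39% of all genes were called, 2 of the 13 were higher and 3 lower in males and 8 were not called (median -0.25). Foxl2, a forkhead gene of the female genital tract and ovary, had 7 to 13 counts in male urethra, 68 to 91 in female urethra, 0 to 1 in male bladder and 0 to 3 in female bladder, and a log2 fold change of -2.98 ± 0.27 between male and female urethra (edgeR, adjusted p = 2.44e-06). Esr1, the oestrogen receptor gene, was lower in male urethra by -1.83 ± 0.20 on the same scale (adjusted p = 2.97e-05). Wnt4, which starts Müllerian duct formation, was higher in male urethra (1.10 ± 0.19, adjusted p = 0.00186) and slightly lower in the urethra than in the bladder (-0.33 ± 0.13, adjusted p = 0.0349). Nr2f2, a nuclear receptor gene of mesenchyme, was higher in male urethra (0.31 ± 0.07, adjusted p = 0.00811), and Osr2, a zinc finger gene, differed between the tissues by 3.59 ± 0.27.

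Of 8 genes of androgen response and growth factors in mesenchyme along the Wolffian duct, 7 were higher in the urethra and 1 lower (median 1.5). Again the share over all genes tested was 36.5% called higher in the urethra. Srd5a2, the enzyme that makes dihydrotestosterone, was the highest at 5.64 ± 0.24, then Gdf7 at 4.79 ± 0.33, while Fgf7 was lower at -0.35 ± 0.11. Between male and female urethra Srd5a2 (1.70 ± 0.21) and Fgf10 (0.75 ± 0.16) were higher in males and 3 genes of the list were lower, with the activin subunit gene Inhba (-0.89 ± 0.16) the lowest. The edgeR adjusted p of these 3 named genes was 7.91e-05 to 0.00767. The median of the list was -0.31. Among all genes tested 3.97% were called higher and 2.42% lower in male urethra.

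The partners of Amhr2 were measured in the same libraries. Amh, the hormone itself, is made in the gonads, which were no part of the dissection, and it had 6 to 14 counts in each of the 16 libraries. Of 11 genes of the pathway, which signals through type I receptors and SMAD proteins, 7 were higher in the urethra and 3 lower (median 0.53). Of all 18254 genes tested, 6664 (36.5%) were called higher and 7019 lower in the urethra. Wif1, a secreted WNT inhibitor gene that the hormone induces in Müllerian mesenchyme of the mouse, was highest at 4.19 ± 0.15, then Smad9 at 1.24 ± 0.10, with Smad4 (-0.32 ± 0.04) and Amh (-0.50 ± 0.22) at the other end. Between male and female urethra Wif1 was higher in males by 1.64 ± 0.15 (edgeR, adjusted p = 2.44e-06), with 15, 19.8, 25.0 and 23.1 CPM in males and 7.15, 5.49, 7.16 and 6.68 CPM in females, so it went the other way from Amhr2. The type I receptor gene Bmpr1b (0.54 ± 0.10) was also higher and Smad5 (-0.25 ± 0.06) lower in male urethra.

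Relatives and neighbours of the 7 genes were read too. Wnt7b, the paralogue of Wnt7a, had a log2 fold change of -0.29 ± 0.22 between urethra and bladder (edgeR, adjusted p = 0.24) and was higher in male urethra than in female urethra by 1.12 ± 0.31 (adjusted p = 0.0439), where Wnt7a was at -1.77 ± 0.54. The other type II receptor genes of the family, Acvr2a, Acvr2b and Bmpr2, were higher in the urethra by 0.71 ± 0.06, 0.73 ± 0.09 and 0.50 ± 0.09 and lay between -0.21 and 0.07 for male against female urethra, none of them called. Of the neighbours on the chromosome, Wnt3 lies 24329 bp from Wnt9b on the opposite strand and was higher in the urethra by 3.45 ± 0.23 (adjusted p = 8.86e-10), but for male against female urethra it had 0.09 ± 0.20 (adjusted p = 0.875), where Wnt9b had 3.75. The 15 neighbours tested were overlapping genes and the nearest on each side. Of these, 6 were higher in the urethra, 3 lower and 6 not called, and none was called between male and female urethra. Among all genes tested 36.5% were called higher in the urethra, and 6.39% were called between male and female urethra. The neighbours that were lower were Psd4, 5606 bp from Pax8 (-1.41 ± 0.14), 1810044D09Rik beside Wnt7a (-0.40 ± 0.15) and Prr13, 4395 bp from Amhr2 (-0.18 ± 0.05).

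Markers of other tissues that use the same factors were checked. Lhx1, Pax2 and Pax8 also act in spinal interneurons and in the kidney. Of 10 spinal interneuron genes the list summed to 5.41 to 6.56 CPM in male urethra, 6.81 to 9.34 in female urethra, 0.322 to 1.20 in male bladder and 0.280 to 0.796 in female bladder. Tlx3 and Lbx1 made up most of the urethral sum. Tlx3 averaged 3.36 CPM in male and 4.07 CPM in female urethra, and Lbx1 averaged 1.31 and 1.76 CPM. Of the 10 genes, Lhx5 and Olig2 were at 0 in every urethra library, while the 3 that passed the filter were all higher in the urethra. Among all genes tested 36.5% were called higher in the urethra. All 10 peripheral neuron genes were higher in the urethra, with 1450 to 2390 CPM in sum there and 133 to 472 CPM in the bladder. The part of nerve cells in the values of Lhx1, Pax2 and Emx2 was not tested. Nor was it tested for Ret and Gfra1 of the duct epithelium list, which averaged 205 and 141 CPM in urethra and 13.2 and 26.9 CPM in bladder. Of 10 nephron genes, Umod was at 0 in all 16 libraries. Summed over that list, urethra libraries held 22.4 to 33.5 CPM and bladder libraries 5.0 to 8.3. Most of the urethral total was Six2 alone, with a mean of 19.5 CPM in males and 24.8 in females. The mean of Six2 in bladder was 1.69 CPM for males and 2.1 for females. Only 4 of the 10 nephron genes were tested between the tissues, with 2 higher in urethra, 1 lower and 1 not called. The 11 gonad genes, a set of cells that also carry Amhr2, summed to 12.1 to 16.5 CPM in the urethra and 24.6 to 36.8 CPM in the bladder, of which Gata4 (15.6 CPM) and Inha (9.04 CPM) made up most in female bladder, and the part of gonad cells in the values of Amhr2 was not tested. Of 10 urothelium genes 7 were lower in the urethra and none higher (median -1.54). Among all 18254 genes tested 7019 were called lower in the urethra.

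Among all genes tested, those whose pattern over the 16 libraries was most like each of the 7 were found by the mean absolute difference of log2 CPM after each gene was centred on its own mean. For Pax2 the nearest was Hs3st3a1 at 0.17, a heparan sulphate sulphotransferase gene, with Adamts16 at 0.28 and Hs3st3b1 at 0.29 after it. Emx2 was nearest to Hmga2 (0.23), A2m and Moxd1 (0.28 each), Pax8 to Adra1d (0.38), Cldn9 (0.46) and Osr2 (0.48), and Lhx1 to Vwa2 (0.42), Pax8 (0.52) and Syt6 (0.54). Wnt9b was nearest to Habp2 (0.47), Ros1 (0.50) and Map3k21 (0.66). Wnt7a had no close match, its nearest being Dlx6 at 0.75, Dlx6os1 at 0.91 and Dlx5 at 0.93, 3 genes of 1 homeobox locus. Amhr2 was nearest to Gm45623 (0.49), Esr1 (0.56) and 2310043M15Rik (0.63). With a prior count of 0.5 in place of 2 the same 3 genes were found for Pax2, Emx2 and Wnt9b, 2 of 3 for Pax8 and Wnt7a, and 1 of 3 for Lhx1 and Amhr2. Among the 7 themselves Pax2 and Emx2 (0.50) and Pax8 and Lhx1 (0.52) were the nearest pairs, and Wnt9b and Wnt7a (2.49) the farthest. These measures describe 16 libraries that share tissue, sex and litter, and no test was made of them.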

How the data were processed

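Poly(A)-selected, strand-specific libraries came from 250 ng of RNA of mesenchyme freed from epithelium with trypsin on ice for 90 minutes and forceps, and read as 100 bp paired ends, per the labels' protocols. HISAT2 2.1.0 aligned the reads to GRCm38 and Subread 1.6.3 counted them, with bcl2fastq and SAMtools also in use, per the submitters' processing notes. The annotation release was not given in the sources used here. The deposited table holds raw counts of fragments per gene symbol, made by the authors with featureCounts at strand setting 2, per the file headers. A second table of counts divided by 1 DESeq2 factor per library was not used here.

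Counts were analysed with R 4.3.3, edgeR 4.0.16 and, as an alternative, DESeq2 1.42.0, with pandas 2.3.3 and matplotlib 3.10.9 on Python 3.11.15 for summaries. The edgeR quasi-likelihood test (TMM scaling, filterByExpr, robust) was run in 1 fit of the 4 groups on 18254 genes, with 6 contrasts, each adjusted over all genes tested. CPM are on TMM-scaled totals, and log2 CPM have a prior count of 2. Standard errors are approximate and come from each fold change and the root of its F statistic. The 95% intervals rest on them. The fitting code was tested on simulated data. Replicate numbers stand for litters, per the labels, so tissues are paired. The correlation of deviations from group means was 0.092 to 0.41 (median 0.19, 7 of 8 pairs over 0.1) for urethra and bladder of 1 litter and sex, and the median was 0.12 (4 of 8 pairs over 0.1) for male and female of 1 litter and tissue. Values over both sexes hold each litter once per sex. Libraries of 1 group were checked for copies (chi-squared per degree of freedom 4.905 to 37.16 over 24 pairs, so none were).

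Named genes are the 7, the 3 most alike for each, and the highest and lowest 2 called of each companion list. Cdh16, Wif1, Amh, paralogues and neighbours are also given, some chosen after their values were seen. A result that the rule names is not reported here. The members and the lists were chosen with earlier results of these data known.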

Additional observations from a re-analysis of the deposited data

Results flagged for a closer look

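In 28 sets of 4 libraries (7 genes in 4 groups) the highest and the lowest library were compared with the rest of their group, by the gap to the nearest library as a share of the group's range on the log2 CPM scale, against Dixon's critical value at 95%. Chance alone gives about 1 such case in 20 sets, and 2 were found. Lhx1 in male urethra replicate 4 had a log2 CPM of 1.24, against 2.05, 2.15 and 2.18 in the other 3 libraries, a share of 0.86. Wnt9b in male bladder replicate 4 had a log2 CPM of -0.96, against 0.42, 0.43 and 0.31 in the others, a share of 0.914. Both libraries come from litter 4, and the tissue pools of that litter also gave the lowest value of Pax2, Pax8, Emx2 and Wnt7a in both male groups.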

How the results depend on the processing

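Over the 7 genes, 6 comparisons and 28 alternatives, not each of which applies to each comparison, there were 1125 values. Of these, 1070 kept their direction and their side of the threshold, 25 passed it newly, 6 no longer passed and 24 changed sign. The 6 genes called between the tissues kept that call in each alternative. With a replicate block for the litter, 7 genes were called between the tissues and 7 in females alone, Amhr2 being the one added, and 7 with a block by litter and sex, and the block changed no other call. Over all genes the litter block called 6887 higher and 7229 lower between the tissues, against 6664 and 7019 without it. In females alone it called 6211 and 6394, against 5950 and 6051. The 2 genes called between male and female urethra became 1 with no filter on low counts, with the epithelium covariate and without female urethra replicates 3 and 4, and numbered 1 to 3 when 1 replicate was left out. Over all genes the main fit called 725 higher and 442 lower in male urethra. The calls were 709 and 302 with no filter, 268 and 109 with the covariate, and 264 and 106 without female urethra replicates 3 and 4. With 1 replicate left out 447 to 897 genes were higher and 227 to 794 lower. DESeq2 called 7 genes between the tissues, Amhr2 among them, 1 gene (Wnt9b) between male and female bladder, and 1 (Wnt9b) for the interaction, where edgeR called 0. Of all 18254 genes DESeq2 called 6882 higher and 6768 lower in the urethra. Between male and female bladder it called 229 higher and 244 lower in males, where edgeR called 45 and 61. For the interaction it called 196 with a positive and 78 with a negative sign, where edgeR called 98 and 24. Leaving out libraries of female bladder and of both female groups was chosen after seeing the data.

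Signs changed only for values that had not passed the test. For male against female urethra, Pax8 was 0.5343 with the epithelium covariate and -0.244 to 0.0136 with 1 replicate left out. Emx2 was -0.0191 without female urethra replicates 3 and 4, -0.0185 without replicates 3 and 4 of both female groups, and -0.0576 to 0.1197 with 1 replicate left out. For male against female bladder without female bladder replicates 3 and 4, Pax2 was 0.1368, Pax8 1.7816, Wnt7a 1.3665 and Amhr2 0.0888. Without those of both female groups they were 0.129, 1.7735, 1.3587 and 0.0811, and Pax8 was -1.1311 to 0.3568 with 1 replicate left out. For the interaction the same 2 settings gave -1.8852 and -1.7766 for Pax8 and -3.1181 and -3.1606 for Wnt7a. With 1 replicate left out the interaction was -0.4602 to 1.0278 for Pax8, -0.1206 to 1.6901 for Wnt7a and -1.3052 to 0.0612 for Amhr2. Beyond which libraries were in the fit, the cause was not tested.

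Scaled by library totals only, without TMM, the median log2 fold change of all genes between the tissues was 0.110 in place of -0.026, with 8341 genes higher and 5381 lower in place of 6664 and 7019, and Amhr2 passed at 1.11 (adjusted p = 0.0305). Fits of only the groups compared exist for the 4 pairs of groups alone. Bladder counts of Lhx1, Wnt7a and Pax8 were 0 to 100, which limits how well their fold changes are known. Without female bladder replicates 3 and 4 the values for females were 3.00 for Pax2, 5.60 for Pax8, 1.90 for Emx2, 2.54 for Wnt9b and 7.99 for Wnt7a, and that of Lhx1, then set against 2 libraries at 0, is not given.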
